A study of Mus musculus with 310 samples.

Results

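The genes B2m, H2-K1, H2-D1 and Tapbp build and load the major histocompatibility complex (MHC) class I molecule. They were chosen by name, and all 4 are among the 14068 genes counted in 310 single cells of mouse tail epidermis. A class I molecule is a heavy chain, encoded among others by H2-K1 and H2-D1, held together by the light chain beta-2 microglobulin, the product of B2m. Tapasin, the product of Tapbp, holds an empty class I molecule beside the peptide transporter of the endoplasmic reticulum until a peptide is bound. The loaded complex shows fragments of the cell's own proteins to CD8+ T cells, and without the light chain the heavy chains do not reach the cell surface in normal amounts. Interferon raises transcription of these genes, and the lower part of the growing hair follicle (HF) is a textbook case of low class I expression, one element of its immune privilege.

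The cells came from mice of mixed CBA and C57BL/6 strain that carried Lrig1-EGFP-ires-CreERT2 and Rosa26-fl/STOP/fl-tdTomato, all given hydroxytamoxifen on the tail skin once. Lrig1 is a gene of stem cells in the HF junctional zone, so tdTomato marks cells that expressed Lrig1 at that time and their progeny, and other epidermal cells were not sorted. The labels put 145 cells in the group 38w (replicates RepI and RepL) and 165 in 38wUW (RepM and RepN), without saying what UW stands for or which group was wounded, so differences are given as 38w against 38wUW. The time labels of the groups are their names, and both give 38 weeks. In all 4 replicates, cells were sorted by fluorescence and sequenced by a full-length protocol without molecular identifiers.

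Cells were called follicle or surface from 58 marker genes, none of them 1 of the 4 class I genes. Follicle cells were those with the highest score for the infundibulum and its duct, the junctional zone or the bulge, and surface cells those with the highest score for differentiated interfollicular epidermis. This gave 133 follicle cells (18 of RepI, 18 of RepL, 48 of RepM and 49 of RepN) and 40 surface cells (15, 15, 7 and 3). The surface markers summed to 57792 CPM (counts per 1e6 reads of the summed cells) in surface cells against 2431 CPM in follicle cells, and the infundibular markers to 658 against 50729 CPM. Gland, basal and unassigned cells, 137 in all, belonged to neither side. RepN did not enter the main fit of follicle against surface because it held 3 surface cells, fewer than the 5 required, but its values are given beside the others. Its follicle sum entered the fit without the replicate block, and its sums of at least 5 cells entered the fits by class. Both its sides entered the fits with basal cells counted as surface and with sums of at least 3 cells.

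Reads per cell had a median of 61294, with pooled medians of 63955 in follicle and 61103 in surface cells. Within replicates the medians lay close in RepI, RepL and RepM, while in RepN they were 136461 in follicle cells and 517677 in the 3 surface cells. Plate C114, which holds most of RepI, stood apart from the other 4 in its ribosomal protein genes, whose median share of the reads was 31.6% there and 3.60% to 6.76% elsewhere. The names of 15 cells carry a suffix that the labels do not explain (13 IDTILL and 2 MBULK), and 11 wells are named by 2 cells each. Without these 15 cells the follicle and surface difference of B2m was 4.33 on the log2 scale (edgeR adjusted p = 0.0228). The strain bears on the heavy chains, because CBA and C57BL/6 carry different H2 alleles while the reads were mapped to the C57BL/6 reference. Its part in the levels of H2-K1 and H2-D1 was not tested.

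In GRCm38 (GENCODE vM21), B2m lies at chr2:122147686-122153083 on the plus strand, away from the MHC. The other 3 genes lie on chromosome 17 within the MHC, Tapbp at chr17:33915899-33929292 (plus strand), H2-K1 at chr17:33996017-34000347 (minus strand) and H2-D1 at chr17:35262730-35267499 (plus strand). The stretch between Tapbp and H2-K1 is 66724 bases long, and that between H2-K1 and H2-D1 spans 1262382 bases. Class I genes are near copies of each other, which can blur their counts. Of all windows of 75 bases, the read length, in the annotated transcripts, 3.10% of those of H2-K1 and 5.40% of those of H2-D1 were also found in transcripts of another gene, mostly other class I genes. The share was 1.10% for Tapbp and 0% for B2m.

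Class I promoters and the B2m promoter are known for a shared module of factor sites that the activator NLRC5 acts through, with a cAMP response element-like site and an inverted CCAAT box. The RefSeq windows of 250 bases before the transcription start (GRCm38) were searched for the letters TGACG and ATTGG on both strands. B2m, H2-K1 and H2-D1 each held TGACG and ATTGG with 20 bases between them, on the strand of the gene. These 30 bases are shown with both motifs in capitals, because the equal spacing is what the 3 genes share.
B2m: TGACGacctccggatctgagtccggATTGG
H2-K1: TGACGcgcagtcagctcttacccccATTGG
H2-D1: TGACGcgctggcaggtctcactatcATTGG
The stretches lie at chr2:122147609-122147638 (plus strand, from 78 to 49 bases before the start), chr17:34000359-34000388 (minus strand, 41 to 12 bases) and chr17:35262993-35263022 (plus strand, ending 72 bases before it). Distances are from the RefSeq start, and the H2-D1 stretch lies inside the gene span that GENCODE gives, which begins further upstream. TGACG alone was found in 17.7% of 32817 promoter windows of the same length and ATTGG alone in 33.8%, but the spaced pair in 30 windows, 0.0914%. Those 30 windows belong to 26 genes, of which 3 are B2m, H2-K1 and H2-D1 and 1, H2-M3, is among the 14 other class I heavy chains that have a window. The spacing counted is the one these 3 genes share and no other was counted, so their place among the hits was fixed. Tapbp held ATTGG at 2 places and no TGACG in its window. That window, chr17:33919228-33919527, lies inside the gene span that GENCODE gives, and the bases before the GENCODE start were not searched. H2-K1 and H2-D1 were the same at 23 of the 30 bases, and B2m matched them at 13 and 12.

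A further stretch upstream holds the letters TTTCNNTT, the core of an interferon-stimulated response element, and in the heavy chain genes also a match to the NF-κB consensus. TTTCNNTT is marked in capitals in each stretch (in B2m on the opposite strand), and so is the NF-κB match of the heavy chains.
B2m: taagaacatgaAACTGAAAatgggaaagt
H2-K1: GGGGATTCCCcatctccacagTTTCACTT
H2-D1: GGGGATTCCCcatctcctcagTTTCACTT
These 29 bases lie at chr2:122147539-122147567, chr17:34000430-34000458 and chr17:35262923-35262951. The heavy chain stretches were the same at 28 of 29 bases. The B2m window held an NF-κB match as well, on the opposite strand. TTTCNNTT was found in 21.3% of all windows and the NF-κB consensus in 7.25%, with neither in the Tapbp window. A match is a description of the letters and does not show that a factor was bound in these cells.

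B2m was higher in follicle cells than in surface cells of every replicate. Over the summed cells RepI had 1300 CPM of B2m in follicle cells, RepL 1459, RepM 1902 and RepN 710.1. In surface cells, in the same order, the levels were 57.5, 34.2, 130 and 167 CPM. The lowest follicle value lay above the highest surface value, so the sides did not overlap. The fold was 42.6 in RepL, with RepI at 22.6, RepM at 14.7 and RepN at 4.24. A single cell gave 69.7% of the follicle reads of RepL, and without the top follicle cell of each replicate the folds were 19.97 in RepL, 16.5 in RepI, 13.7 in RepM and 3.88 in RepN.

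In the paired fit of RepI, RepL and RepM, B2m differed by 4.36 ± 0.54 on the log2 scale (SE, n = 3), a fold of 20.5 (edgeR quasi-likelihood test, Benjamini-Hochberg adjusted p = 0.00467). Its p ranked 4 among 7532 genes tested. Of those genes 40 passed the threshold, 0.531%, and 23 of them were higher in follicle cells, 0.305%. The median of all genes was 0.07. The call was lost without RepM, where the log2 difference was 4.77 (adjusted p = 0.248), and with RepN added at 3 surface cells, where it was 3.62 (adjusted p = 0.094). It was also lost without the replicate block (3.98, adjusted p = 0.0777), with no minimum lead for a class (3.47, 0.124) and with basal cells counted as surface (3.56, 0.0524). The fits without the block and with basal cells as surface also held sums of RepN, so the set of samples changed as well.

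**Figure D1:**
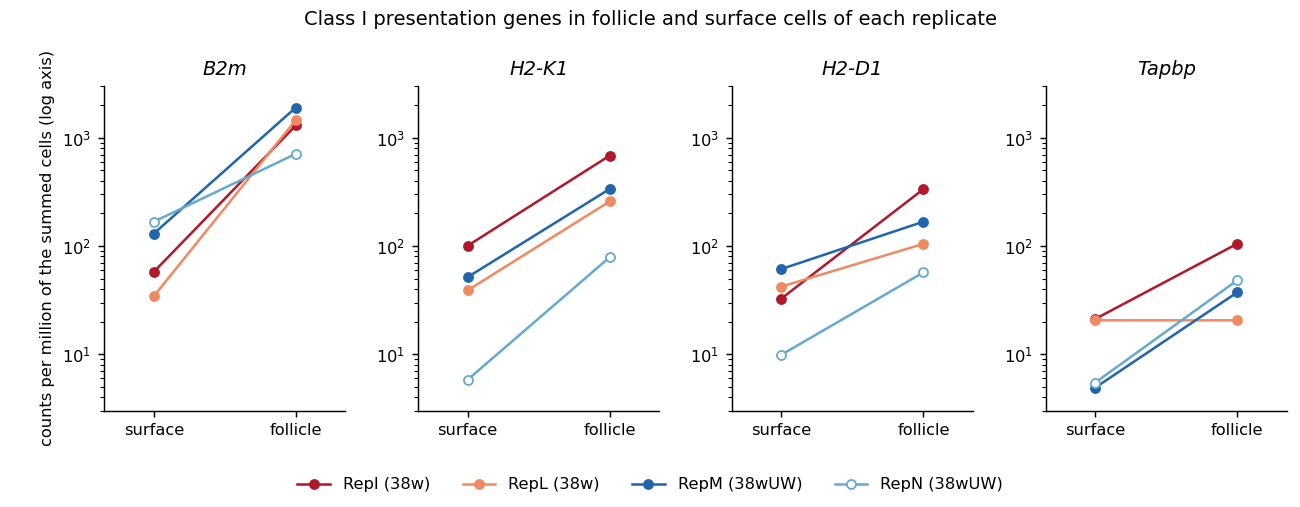
CPM (log axis) of each gene in the summed surface and follicle cells, 1 line per replicate, with RepN drawn open because it held 3 surface cells. All B2m lines rise, from 34.2 to 167 CPM at the surface to 710.1 to 1902 CPM in the follicle, and the Tapbp line of RepL is flat.

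The heavy chains followed in the same direction at lower size. H2-K1 stood at 683, 258, 336 and 78.6 CPM in follicle cells of RepI, RepL, RepM and RepN. In surface cells it stood at 100.4, 38.8, 51.4 and 5.79 CPM. It was higher in the follicle in 4 of 4 replicates, although the surface value of RepI exceeded the follicle value of RepN. The fold lay between 6.53 and 6.81 in RepI, RepL and RepM and was 13.6 in RepN. The top cell gave 47.2% of the follicle reads of H2-K1 in RepI and 60.5% in RepL, and without it the folds there were 4.13 and 4.06. The log2 difference of 2.51 ± 0.59 (SE, n = 3) did not pass the threshold in the edgeR test (adjusted p = 0.0951), and it passed in DESeq2, at 2.44 (adjusted p = 0.00632), where 4.69% of all genes passed and 2.99% were higher in the follicle.

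H2-D1 stood at 335, 104, 168 and 57.0 CPM in follicle cells, in the same order of replicates. In surface cells it stood at 32.7, 42.1, 61.2 and 9.87 CPM. Each replicate was again higher in the follicle, by a fold of 10.3, 2.48, 2.74 and 5.77. The sides overlapped through RepN. The log2 difference was 1.81 ± 0.75 (SE, n = 3; edgeR adjusted p = 0.445).

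Tapbp was the least abundant of the genes. Its follicle values were 105, 20.5, 37.3 and 48.2 CPM. Its surface values were 21.1, 20.5, 4.90 and 5.46 CPM, the last pair resting on 2 and 6 reads. RepL was level (fold of 0.999), and the other 3 replicates were higher in the follicle. The log2 difference of 1.47 ± 1.05 (SE, n = 3) did not pass (edgeR adjusted p = 0.779).

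An exact sign-flip test over the 4 replicates, two-sided, gave p = 0.125 for B2m, H2-K1 and H2-D1 and p = 0.25 for Tapbp. With 4 replicates 0.125 is the smallest p this test can give. By plate, B2m, H2-K1 and H2-D1 were higher in follicle cells on 5 of 5 plates and Tapbp on 4, with the fold of B2m at 17.7 on C114 and 56.9 on C118, the plates of RepI. The other plates are RepL, RepM and RepN themselves, so the count by plate adds only the split of RepI. The B2m value of C118 rests on 2 follicle cells, 1 of which gave 99.5% of the reads. On C118 the fold of H2-K1 was 1.17, and Tapbp had 0 surface reads. For each of these genes 1 of the 2 follicle cells gave all follicle reads.

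Levels between the genes can be compared per length. Per kilobase of merged exon, B2m had 1511, 1696, 2211 and 826 CPM in follicle cells of RepI, RepL, RepM and RepN. H2-K1 had 26.7 to 233 CPM per kilobase and H2-D1 had 22.1 to 130. Tapbp lay lowest, between 5.66 and 28.9. This order held in the follicle of every replicate. At the surface B2m still led in each replicate, at 39.8 to 195 CPM per kilobase, while H2-K1 was above H2-D1 in RepI alone.

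In such sums fewer cells expressing a gene and less RNA per cell cannot be told apart, and single cells with many reads weigh heavily. Without the top cell of RepL its follicle level of B2m was 683 CPM in place of 1459, above the surface value of 34.2. In the follicle of the other replicates the top cell gave 11.2% to 34.8% of the B2m reads. When each cell was given the same weight, the log2 difference of B2m was 3.67 and remained past the threshold.

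**Figure D2:**
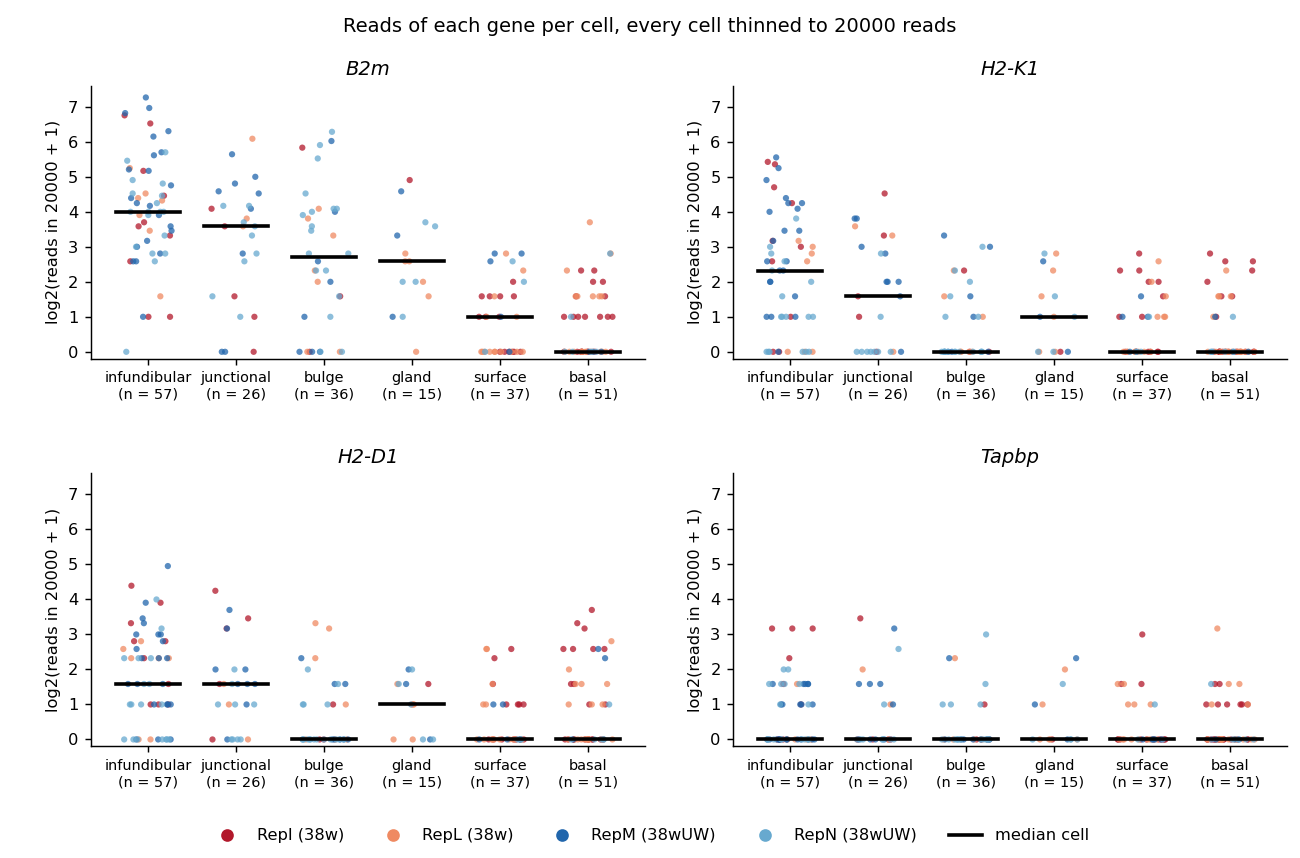
Reads of each gene per cell after every cell was thinned to 20000 reads, as log2(reads + 1), by cell class; 1 point per cell, coloured by replicate, with a black bar at the median cell. The median of B2m falls from 15 reads in infundibular cells to 1 in surface cells and 0 in basal cells, and the Tapbp median is 0 in every class.

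To compare cells of unequal depth, each was thinned to 20000 reads, which 277 of 310 reached. Thinned, 89.9% of follicle cells had a B2m read (107 cells, Wilson 95% interval 83.2% to 94.1%), as did 19 of 37 surface cells (51.4%, 35.9% to 66.6%). The intervals cover counting error only. The median follicle cell had 12 reads of B2m and the median surface cell 1, so the sides differed more in reads per cell than in the share of cells. The share was higher in the follicle in 4 of 4 replicates (mean 89.4% ± 2.71 against 59.3% ± 19.7, SD, n = 4; exact sign-flip p = 0.125, the smallest possible).

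For H2-D1 64.7% of follicle cells and 37.8% of surface cells had a read after thinning, and for H2-K1 63.0% and 48.6%. For Tapbp the shares were 36.1% and 24.3%. Unthinned, 71.4% of follicle cells and 67.5% of surface cells had a read of H2-K1, so at full depth its sides were separated by reads per cell and hardly by share. Unthinned shares of B2m were 91% and 57.5%. All 4 genes were found together in 20.2% of follicle cells and 3 of them in a further 35.3%, against 5.41% and 13.5% of surface cells. Across the thinned follicle cells, which share plates and depth after thinning, Spearman's rho was 0.53 between H2-K1 and H2-D1, 0.52 between B2m and H2-K1 and 0.25 between B2m and H2-D1.

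Among the follicle classes, the mean levels of B2m, H2-K1 and H2-D1 were highest in the infundibulum, though not in every replicate and with wide spread. In RepL, H2-D1 stood at 163 CPM in the bulge and 127 in the infundibulum, and B2m at 2131 CPM in 3 junctional cells and 939 in the infundibulum. The H2-D1 means of the infundibulum and the junctional zone, 225 ± 164 (SD, n = 4) and 190 ± 160 (n = 3), lay within their spread. B2m averaged 1514 ± 792 CPM in the infundibulum (SD, n = 4 sums of at least 5 cells), 752 ± 632 in the junctional zone (n = 3) and 734 ± 401 in the bulge (n = 3). The sebaceous gland, not counted as follicle, averaged 232 ± 71.4 (n = 2). Surface cells averaged 73.8 ± 49.8 (n = 3) and basal cells 82.0 ± 32.7 (n = 4). The infundibulum, junctional zone and bulge lay within 1 SD of the next in this order, as did basal and surface cells. The gland lay apart from both its neighbours by more than 1 SD, but on 2 sums only. With sums of fewer cells included, it averaged 512 ± 399 (SD, n = 4). In the bulge of RepM 1 of 10 cells gave 90.9% of the B2m reads, and without it the level there was 163 CPM in place of 1147.

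Against surface cells, B2m rose in each follicle class. The log2 difference was 4.47 ± 0.56 in the infundibulum (SE; edgeR adjusted p = 0.00135), 3.0 ± 0.57 in the junctional zone (adjusted p = 0.0226) and 3.21 ± 0.57 in the bulge (adjusted p = 0.0134). In these contrasts 0.409%, 0.471% and 0.629% of 9546 genes passed. In the gland it was 1.94 ± 0.62 (adjusted p = 0.21), where 0.723% of genes passed. With basal cells added to the fit the infundibulum kept its call (adjusted p = 0.0103), while the bulge (0.0512) and the junctional zone (0.0574) missed the threshold.

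The heavy chains did not pass in any class. H2-K1 had log2 differences of 2.66 ± 0.67 in the infundibulum (edgeR adjusted p = 0.102), 1.65 ± 0.73 in the junctional zone, 1.19 ± 0.77 in the gland and 0.82 ± 0.72 in the bulge. H2-D1 had 2.36 ± 0.74, 1.87 ± 0.78, 0.57 ± 0.91 and 1.23 ± 0.74 in the same order. In the bulge the levels of H2-K1 were 22.7 CPM in RepL, 214 in RepM and 43.6 in RepN, whereas those of B2m were 345, 1147 and 710.4. After thinning, 14 of 36 bulge cells had a read of H2-K1 and 28 of 36 a read of B2m. Whether the heavy chains differed between the bulge and the infundibulum was not tested. Tapbp stayed between 0.21 and 1.84 in the 4 contrasts, with standard errors above 1.

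Basal cells, which cannot be placed in follicle or surface from these markers, had a B2m level near that of surface cells. Their log2 difference from surface cells was 0.44 ± 0.62 for B2m, -1.12 ± 0.72 for H2-K1, 0.79 ± 0.70 for H2-D1 and -0.48 ± 0.98 for Tapbp. None of these passed (edgeR adjusted p from 0.753 to 0.978), in a contrast where 0.244% of genes did. H2-D1 reached 168 CPM in basal cells of RepI and 191 in RepM, above B2m in the same cells (62.9 and 56.6 CPM). In RepL and RepN it was below B2m, at 55.7 and 8.28 CPM against 128.8 and 79.7.

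**Figure D3:**
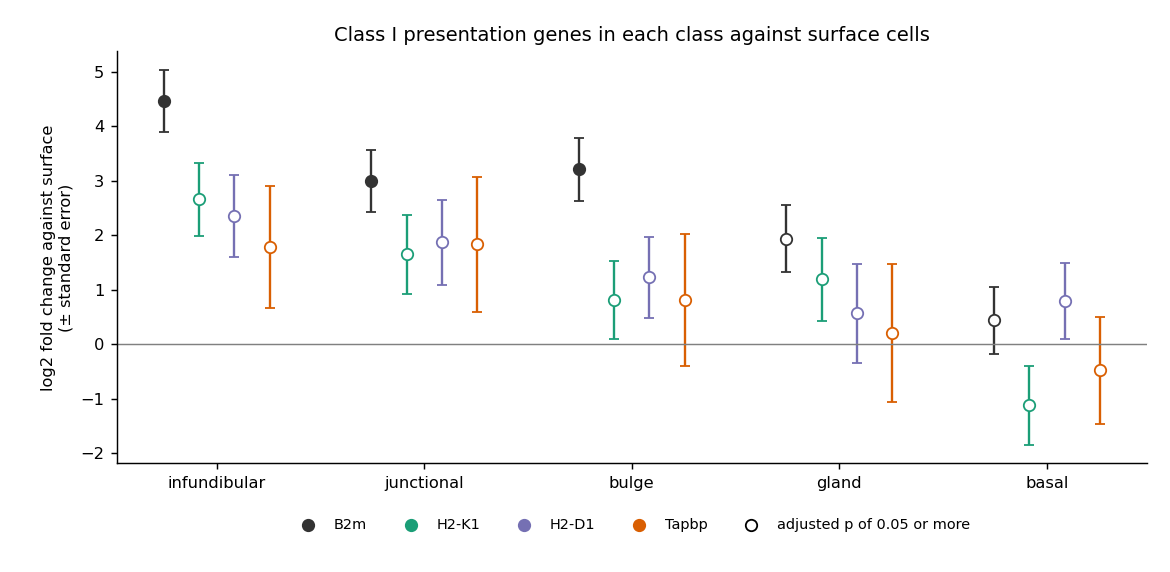
Log2 fold change of each gene against surface cells in 4 classes and, from the fit with basal cells added, in basal cells; points are edgeR estimates, bars standard errors, and filled points have an adjusted p under 0.05. B2m is filled in the infundibulum, junctional zone and bulge, at 4.47, 3.0 and 3.21, and all other points are open.

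Between the groups 38w and 38wUW, none of the 4 genes passed the threshold. In the sums over all cells, the 38w replicates RepI and RepL had 496 and 468 CPM of B2m, and the 38wUW replicates RepM and RepN 1285 and 583. Both 38w values of B2m lay below both 38wUW values, and for Tapbp both lay above. With 2 against 2 replicates any order without overlap has p = 0.333 in an exact two-sided permutation test. How many of all genes had such an order was not counted. The log2 difference of B2m, 38w against 38wUW, was -0.71 ± 0.97 (SE, n = 2 against 2; edgeR adjusted p = 0.848).

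H2-K1 stood at 251, 93.2, 238 and 72.1 CPM, so that each group held a high and a low replicate. H2-D1 followed the same order of replicates with 182, 66.3, 132 and 51.1 CPM. Their log2 differences were 0.40 ± 0.92 and 0.69 ± 0.89, and without RepI both turned negative. Tapbp stood at 48.8, 45.2, 31.8 and 39.2 CPM, a log2 difference of 0.65 ± 0.85. All 3 had adjusted p-values from 0.843 to 0.915 in the same edgeR fit. Of 11760 genes 0% passed, with 949 at an unadjusted p under 0.05 in edgeR and 68, 0.578%, past the threshold in DESeq2.

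The groups held different shares of follicle cells, 36 of 145 in 38w and 97 of 165 in 38wUW, so the sums over all cells mix level and composition. Within follicle cells the log2 difference of B2m was 0.37 ± 1.24 (edgeR adjusted p = 0.954), and those of H2-K1, H2-D1 and Tapbp were 1.4 ± 1.18, 1.18 ± 1.13 and 0.78 ± 1.15. Here 0% of 9825 genes passed, with 573 at an unadjusted p under 0.05. Within surface cells 38wUW is represented by 7 cells of RepM and 3 of RepN, so the values there are a description. B2m differed by -1.50 ± 1.48 and the other genes by 1.70 ± 1.68, 0.42 ± 1.71 and 2.15 ± 1.85. With 2 replicates per group, the intervals leave room for differences of several fold in either direction.

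The difference between follicle and surface was itself compared between the groups. For B2m it was 0.98 ± 0.98 larger in 38w on the log2 scale (edgeR interaction, adjusted p = 1), a test that rests on RepI and RepL against RepM alone and says little of the groups. For H2-K1, H2-D1 and Tapbp the interaction was -0.05 ± 1.28, 0.80 ± 1.63 and -1.83 ± 2.37. None of the 7532 genes passed (0%), with 201 at an unadjusted p under 0.05. With RepN added, the B2m interaction was 2.13 ± 0.97 (p = 0.0535 unadjusted, 1 adjusted, edgeR).

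**Figure D4:**
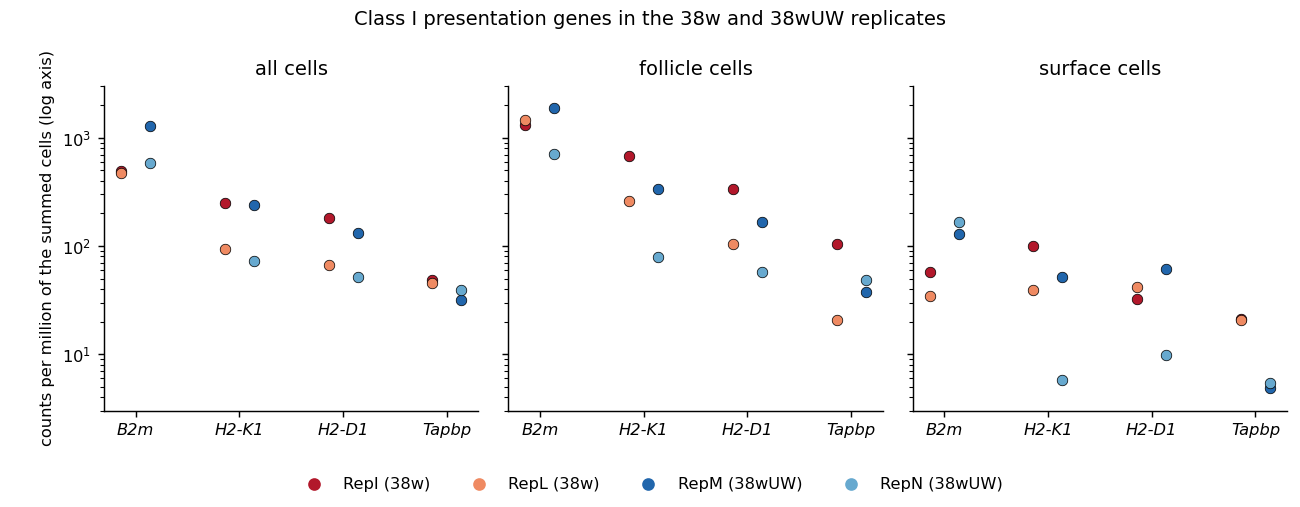
CPM (log axis) of each gene in all cells, follicle cells and surface cells, 1 point per replicate, with 38w on the left and 38wUW on the right of each gene. In all cells the groups overlap for H2-K1 and H2-D1, whose 38w values are 251 and 93.2 and 182 and 66.3 CPM.

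No other gene of the antigen presentation pathway passed the threshold between follicle and surface in edgeR. Genes of peptide supply and loading, the partners that deliver and fit peptides, had a median log2 difference of -0.62 between follicle and surface, against 0.07 for all genes tested. Of 12 listed, 11 were tested and 0 passed in either direction in edgeR or in DESeq2, with 0 and 2 at an unadjusted p under 0.05. Of all genes 9.15% were under it in edgeR and 14.4% in DESeq2. The most abundant were Pdia3, a disulfide isomerase of the loading complex (-0.62, edgeR adjusted p = 0.845), Canx, a chaperone of new heavy chains (-0.34, adjusted p = 0.929), and Psme2, a proteasome activator subunit (-1.29, adjusted p = 0.741). Chosen after their values were seen, the peptide transporter subunits Tap1 and Tap2 and the immunoproteasome subunit Psmb8 had 2.10 ± 1.14, 3.13 ± 1.58 and 3.21 ± 1.66 (SE; adjusted p from 0.612 to 0.654).

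The constitutive proteasome core, which cuts proteins into peptides, had a median of -0.39. All 14 subunits were tested and 0 passed in edgeR or DESeq2, with 0 at an unadjusted p under 0.05 in each. Of the most abundant, Psma3, Psma1 and Psmb1, the log2 differences were -0.65, -0.98 and 0.49.

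Among the other class I heavy chains, 10 of 20 listed genes were in the table and 3 were abundant enough to test. H2-T23, which presents leader peptides to natural killer cells, differed by 0.95 (edgeR adjusted p = 0.906), H2-T22 by 0.26 and Mr1, which presents microbial metabolites, by 4.20 ± 1.77 (adjusted p = 0.465). None of the 3 passed in edgeR or DESeq2, with 1 at an unadjusted p under 0.05 in each. The 5 class II genes in the table were too low to test. The interferon-stimulated genes Ifitm3, Ly6e and Ifi27 differed by 2.59, 0.90 and 0.19. Of the 4 tested genes of that list 0 passed in edgeR, with 0 at an unadjusted p under 0.05, and 0 passed in DESeq2, with 1.

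Among regulators of class I transcription and interferon signalling, 12 of 21 were tested and 0 passed in edgeR, with 1 at an unadjusted p under 0.05. The list had a median of 0.42, also with Nlrc5 at its lower bound. The most abundant, the kinases Jak1 and Jak2 and the interferon gamma receptor Ifngr1, differed by -1.38, 1.28 and 1.15. In DESeq2, where 4.69% of all genes passed, 1 gene of the list did. This was Nlrc5, the activator that acts on class I promoters, named here after its values were seen. It had entered the test only through its follicle reads, so that call is no support. Nlrc5 had 0 reads among the 4228824 of all surface cells, which allows up to 0.709 CPM at 3 counts. The follicle cells of all 4 replicates held 171 reads, 10.5 CPM, at least 14.8-fold higher in the pooled counts. These reads lay in 17 of 133 follicle cells. The bound covers counting error only and is not one for each replicate. Follicle cells of RepN had 0.95 CPM of Nlrc5, while the other replicates had 16.2 to 26.9 CPM. Irf1, a further activator of class I genes and also named after its values were seen, had 0 surface reads and 15.7 CPM in the follicle, and was too low to test.

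Among immune privilege factors and checkpoint ligands, 4 of 10 were tested and 0 passed in edgeR, with 3 at an unadjusted p under 0.05 (9.15% of all genes). Mif, a cytokine of privileged sites, differed by -1.50 ± 0.50 (adjusted p = 0.284), Cd47, a signal against phagocytosis, by -0.65 and Tgfb2 by 3.39 ± 1.0 (adjusted p = 0.202). Cd200, an inhibitory ligand of HF stem cells named here after its values were seen, had 0 reads in surface cells and 39.9 CPM in the follicle. That is at least 56.2-fold higher in the pooled counts, a bound that covers counting error only. In DESeq2, where 4.69% of all genes passed, Tgfb2 did (adjusted p = 0.00583). So did Cd200, which had entered the test only through its follicle reads, so that its call is no support. The median of the list was 1.37, also with Cd200 at its lower bound. The only ligand of the receptor NKG2D in the table, H60c, differed by -0.45 (edgeR adjusted p = 0.962).

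**Figure D5:**
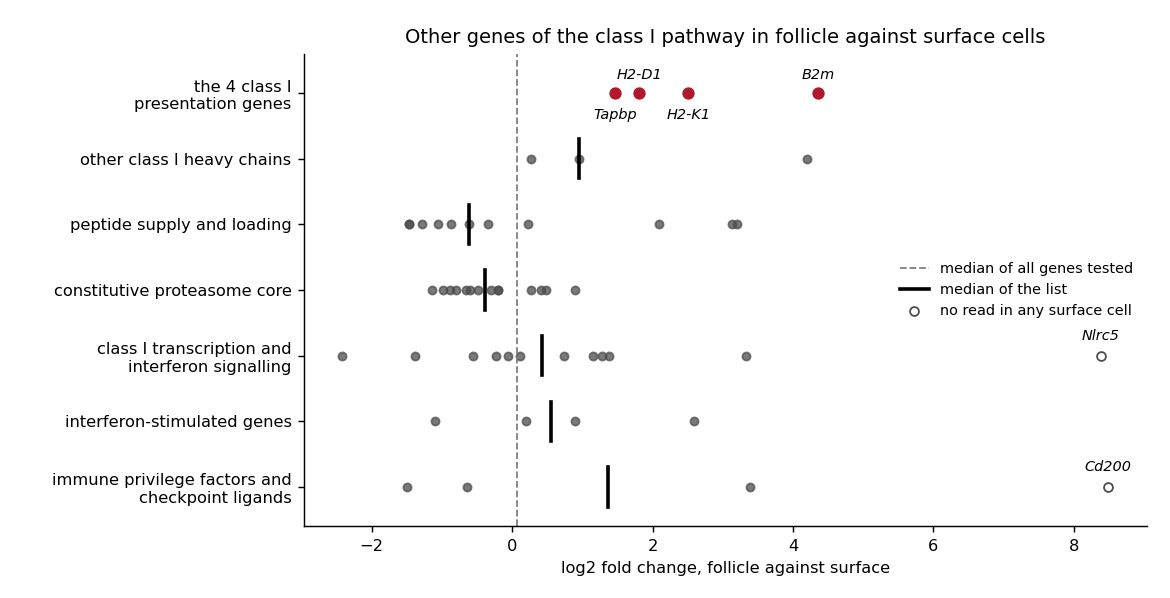
Log2 fold change of follicle against surface for the tested genes of each list, with a black bar at the median of a list and a dashed line at the median of all genes, 0.07. The class I genes lie at 1.47 to 4.36, the medians of the proteasome core and of peptide supply lie below 0, and open points (Nlrc5, Cd200) had no read in any surface cell, so their position depends on the prior count.

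Genes of other cell types were looked for on both sides. Of the T cell list 3 of 6 genes were in the table, and their summed level was 2.35 to 11.3 CPM in the follicle and 2.17 to 9.80 CPM at the surface. Over all cells of a side, Cd3d had 7.02 CPM in the follicle (31 cells) and 0.807 at the surface (2 cells). Ptprc had 0.615 and 1.89 CPM, and Thy1 0.676 and 0.709. Of the list of Langerhans cells and macrophages 4 of 8 were in the table, at 339 to 636 CPM in the follicle and 9.13 to 166 CPM at the surface. Epcam, which HF keratinocytes also express, made up nearly all of it (527 CPM over all follicle cells). The class II genes H2-Aa and H2-Eb1 and Lyz2 had 0.127, 1.97 and 0.184 CPM there. The fibroblast, melanocyte and Merkel cell lists reached at most 80.3 CPM on either side, and of the endothelial list Kdr had 0.247 CPM while Pecam1 was read in every cell of both sides. Pooled over replicates, cells of the follicle and the surface had median mitochondrial shares of 13.5% and 10.9%. Within each replicate the order was reversed. Follicle and surface medians were 2.55% and 4.96% in RepI, 9.11% and 9.15% in RepL. They were 14.1% and 21.2% in RepM and 18.1% and 34.1% in RepN. Pooled ribosomal protein shares were 4.21% and 6.71%. The part of these shares in the results was not tested.

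The genes most like each member over the 15 sums per replicate and class are given as a description. For B2m they were Adgrl3, Lgals12 and Gpx2 (Spearman's rho of 0.89, 0.85 and 0.83 among 6298 genes compared). H2-K1, the member closest to B2m, followed at 0.67, H2-D1 at 0.58 and Tapbp at 0.38. For H2-K1 they included Acot8 and Mrpl43 (both 0.81), for H2-D1 Dpysl3, Arpc1b and Cdc42ep4 (0.87, 0.80 and 0.75), and for Tapbp Tuba1c, Spen and Gstm2 (0.84, 0.84 and 0.83). The sums share replicates and plates, and so large a search finds high values among unrelated genes.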

How the data were processed

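The authors sorted single tdTomato+ cells into plates, made modified Smart-seq2 libraries, sequenced single-end reads of 75 bases and quantified them with Salmon 0.13.1 against a mouse transcriptome (GRCm38). What the authors deposited are unscaled estimated counts, 1 value for each gene in each cell, and 3.60% of the values are not whole numbers. Whether the study's filters on cells and genes were applied to it is not given in the sources used here. Reads per cell ranged from 11711 to 721564.

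Each cell was scored for 6 classes by the mean of its markers (log of counts per 10000) and took the highest class if it led by at least 0.2 and at least 3 markers had a read; 51 cells lay within 0.1 of that lead. Counts were summed per replicate and side or class (at least 5 cells), rounded, and fitted by edgeR 4.0.16 (R 4.3.3; TMM normalization, filterByExpr, quasi-likelihood F-test, replicate as a block between cell types, Benjamini-Hochberg adjustment over all genes tested, threshold 0.05), with class markers left out of the tested genes. The block pairs follicle and surface sums of the same replicate. SE is the log2 fold change over the root of F. DESeq2 1.42.0 was an alternative. The study's methods give 2 independent experiments of 4 biological replicates each, without tying them to the replicate names of the labels, so how many mice RepI, RepL, RepM and RepN hold is not given in the sources used here and p-values measure the spread between these samples. The fits were also run on simulated sums. These held no replicate effects and no single cells with most of the reads, so they do not show how the fits perform here. Named genes were the 4 members, list genes past the threshold or else the 3 most abundant of a list, and the 3 genes most like each member, of which 1 is not reported here. Tap1, Tap2, Psmb8, Nlrc5, Irf1 and Cd200 fall outside this rule. The members and lists were chosen with earlier results of these data known. Doublets were not called.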

Additional observations from a re-analysis of the deposited data

Results flagged for a closer look

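In the groups of 4 replicates tested for a sample far from the others (20 in all, where chance flags about 1 in 20), 1 value stood apart. It was the log2 difference of H2-K1 between follicle and surface in RepN, 3.76 against 2.71 to 2.77 in RepI, RepL and RepM. The gap to the nearest replicate made up 0.944 of the whole range. The surface value of RepN rests on 3 cells and 6.36 estimated reads of H2-K1, against 21.0 to 185 reads in the other replicates.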

How the results depend on the processing

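Follicle against surface, the log2 difference stayed above 0 under all 17 alternatives run, from 3.47 to 4.77 for B2m, 2.0 to 2.95 for H2-K1, 1.22 to 2.22 for H2-D1 and 1.0 to 2.33 for Tapbp. The number of genes called, 40, was 24 with DESeq2 size factors, 353 in the DESeq2 test, 205 without the low-count filter, 86 with equal weight per cell, 72 with thinned cells, 9 without the 15 cells with a name suffix, 4 with no minimum lead, 3 with a lead of at least 0.5, 4 with basal cells as surface, and 0 with sums of at least 3 cells (edgeR, 625 at an unadjusted p under 0.05), an alternative chosen after seeing the data. Leaving out a replicate gave from 1 gene, without RepM, to about 1.3e+02, without RepL. B2m lost its call in edgeR without RepM (4.77, adjusted p = 0.248; range of leaving out a replicate 3.98 to 4.77), with no minimum lead (3.47, 0.124), with basal cells as surface (3.56, 0.0524) and with sums of at least 3 cells (3.62, 0.094). H2-K1 passed in DESeq2 (2.44, adjusted p = 0.00632), without the filter (2.57, 0.0187), with thinned cells (2.32, 0.0378) and without RepL (2.53, 0.0443; leaving out a replicate gave 2.53 to 2.57). With basal cells added, chosen after seeing the data, B2m was 3.13 in the junctional zone and 3.17 in the bulge, short of the threshold. The cause of these changes was not tested.

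Without the replicate block, that is without pairing the follicle and surface sums of a replicate, B2m differed by 3.98 (edgeR adjusted p = 0.0777) and 48 genes were called. The follicle sum of RepN also entered that fit. No other call of the 4 genes changed. With plates as units and the batch tag as a replicate block between the groups, 1 gene was called, and 4 with the alternative batch tag, where H2-K1 was -0.030. Both tags read Replicate1 or Replicate2, and they disagree with each other on RepM and RepN. Under both, the plates C114 and C118 of RepI carry different tags, so RepI spans both batches. For this reason the main fit between the groups had no batch block.

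For 38w against 38wUW, 0 genes were called in edgeR (949 at an unadjusted p under 0.05), 68 in the DESeq2 test and 1 without the filter, and leaving out a replicate gave 0 to 1215, 169 without RepI and 1215 without RepL. H2-K1 (0.40) turned to -0.072 with equal weight per cell, -0.12 with thinned cells, -0.79 without plate C114, -0.51 without RepI and -0.23 without RepN, and leaving out a replicate gave up to 1.54. H2-D1 (0.69) turned to -0.24 without RepI (up to 1.56 without RepM) and -0.28 without plate C114, and its interaction (0.80) to -0.16 with sums of at least 3 cells and without RepI. The share of cells with a read, 38w minus 38wUW, was -8.04 points for B2m and -4.75 for H2-D1 unthinned, against -20.5 and 0.584 thinned. Leaving out a replicate in the interaction of RepI, RepL and RepM leaves no residual degrees of freedom and was not run. Depth limits the low values, above all Tapbp at the surface, and the 2 replicates per group limit every difference between groups.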
